A study of Mus musculus with 6 samples.

Results

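4931406C07Rik and Taf1d are neighbouring mouse genes on chromosome 9 that lie on opposite strands and overlap at their 5′ ends. They are 2 of the 23282 genes counted in colon RNA from mice given pregnenolone 16α-carbonitrile (PCN), a synthetic steroid that activates the rodent pregnane X receptor (PXR), or given vehicle. 4931406C07Rik was selected on its measured PCN-to-vehicle difference, which was large and even over these same libraries, and Taf1d was chosen by position, because it overlaps 4931406C07Rik. The PCN-against-vehicle values of 4931406C07Rik are therefore a description and carry no test. The study sequenced the colon to find genes that PXR regulates in the intestine. The PCN group held 3 libraries (replicates 4, 5 and 6) from 8-week-old wild-type C57BL/6J mice (male, per the study's methods) that received 40 mg/kg PCN in the peritoneum 3 times, with 8 h between doses, and the vehicle group held 3 libraries (replicates 3, 5 and 6) from mice of the same strain, age and genotype that the labels call controls (the PCN carrier was DMSO in corn oil). Tissue was taken 8 h after the last dose. The sources used here do not tie each library to a separate animal, so the p-values here rest on library-to-library spread, which may be technical in part.

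4931406C07Rik is the mouse counterpart of human C11orf54, a zinc-binding protein with ester hydrolase activity that is found in the nucleus. Taf1d encodes a subunit of selectivity factor 1 (SL1), the complex that brings RNA polymerase I to the promoter of the ribosomal RNA genes, the first step in making ribosomes. Taf1d is also a host gene of small nucleolar RNAs (snoRNAs), short guide RNAs that are cut out of its transcripts and direct the modification of ribosomal and other RNAs. PXR is a nuclear receptor of liver and gut that pairs with the retinoid X receptor and binds repeats of a short hexamer motif near genes of drug metabolism.

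In GENCODE M21 (GRCm38), 4931406C07Rik (ENSMUSG00000031938) lies on the minus strand of chromosome 9 from 15283337 to 15306448, and Taf1d (ENSMUSG00000031939) on the plus strand from 15306214 to 15316991. The genes are thus head to head, each transcribed away from the other. They share 235 bases, from 15306214 to 15306448, all of them exonic on both strands, which make up 2.16% of the exonic bases of 4931406C07Rik and 2.63% of those of Taf1d. Of 9 annotated transcripts of 4931406C07Rik, 1 reaches into this stretch, through its non-coding first exon, while 9 of 16 transcripts of Taf1d have an exon there. The next longest coding transcript of 4931406C07Rik starts at 15306167 and leaves 46 bases between its start and the first start of Taf1d at 15306214. At its other end, Taf1d overlaps Cep295 on the minus strand by 77 bases, 0.860% of the exonic bases of Taf1d. The annotation also places 8 snoRNA and 2 miRNA genes inside Taf1d and none inside 4931406C07Rik. No small RNA gene is among the rows of the count table, so the snoRNAs were not analysed here.

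The stretch between these starts is shown because it separates the start of Taf1d from the nearest coding start of 4931406C07Rik that does not overlap it. It is given on the strand of Taf1d from RefSeq (GRCm38.p6, chr9:15306138-15306243, plus strand), with the 46 bases between the starts in capitals, the first 30 bases of the 4931406C07Rik transcript (antisense) to the left and the first 30 bases of Taf1d to the right. G and C made up 67.9% of these 106 bases.
Bases between the starts: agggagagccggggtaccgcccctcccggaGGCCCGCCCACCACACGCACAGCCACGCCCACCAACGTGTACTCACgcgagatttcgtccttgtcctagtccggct

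RefSeq also lists an internal start of 4931406C07Rik at 15301607, upstream of its start codon at 15301421. This region is shown because it held the only matches to the PXR-type hexamers that were searched. The search covered 300-base windows (250 bases before and 50 after a start) around the 3 listed starts of 4931406C07Rik and the 1 of Taf1d. It is given on the strand of 4931406C07Rik (GRCm38.p6, chr9:15301578-15301657, minus strand), with the hexamers in capitals.
Internal start of 4931406C07Rik: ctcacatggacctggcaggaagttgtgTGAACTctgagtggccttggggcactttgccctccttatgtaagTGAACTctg

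The hexamers searched, on both strands, were AGGTCA with its variant AGTTCA, and GGGTCA with its variant GGTTCA, and both matches were the reverse complement of AGTTCA, with 38 bases between them. At least 2 such hexamers were found in 13.1% of the 32851 promoter windows of RefSeq. Direct repeats of these hexamers spaced by 3, 4 or 5 bases, and everted repeats spaced by 6 bases, were searched on both strands as well. None of the 4 windows of 4931406C07Rik and Taf1d held one, and 0.244% of all windows did. A match is a description of letters, and the absence of one says nothing of sequence outside these windows or of hexamers not searched. The PXR element that the study tested in the B3galt5 promoter holds AGGTCA and AGATCA, 4 bases apart. AGATCA was not searched here, so repeats that contain it would have been missed.

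4931406C07Rik RNA was about 4 times as abundant in PCN libraries. It had 646, 705 and 616 CPM (read counts relative to library size, scaled by edgeR's TMM) in PCN replicates 4, 5 and 6, against 216, 140.3 and 135 CPM in vehicle replicates 3, 5 and 6. All PCN libraries lay close together and far above the vehicle libraries, of which replicate 3 was the highest. The means were 656 ± 45.4 CPM after PCN and 164 ± 45.6 CPM after vehicle (SD, n = 3 each), so that the spread was 6.93% of the mean in PCN libraries and 27.8% in vehicle libraries. The lowest PCN library was 2.85-fold above the highest vehicle library. The log2 fold change fitted by edgeR was 2.00, with an SE of 0.18 and a 95% interval of 1.58 to 2.43, which is a 4.01-fold higher level. Of 16586 genes with enough counts to be tested, 17 others had a larger log2 fold change, placing it 18, but none of these was as abundant. This place depends on the processing, since it lay between 23 and 59 with 1 library left out and was 42 with a replicate block, 5 with limma on log2(FPKM + 1) and 1063 without a filter on low counts. Among the 2294 genes that averaged at least 100 CPM it ranked 2, and by the gain in CPM it ranked 14 of all genes tested. With 3404 counts or more in every library, its counting error was at most 1.71%, well below the spread between libraries.

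Taf1d was higher after PCN to a smaller degree, and this difference passed DESeq2 but not edgeR. It had 105, 136 and 154 CPM in PCN replicates 4, 5 and 6, against 90.6, 92.5 and 79.2 CPM in vehicle replicates 3, 5 and 6. The groups did not overlap, although PCN replicate 4 was only 1.13-fold above the highest vehicle library. Of all genes tested, 8.69% had every PCN library above every vehicle library, and 7.39% had the opposite. Mean levels were 132 ± 25.0 CPM after PCN and 87.4 ± 7.16 CPM after vehicle (SD, n = 3 each). By edgeR its log2 fold change was 0.59, with an SE of 0.14, a 95% interval of 0.26 to 0.92 and an adjusted p of 0.288, which is a 1.51-fold higher level. Taf1d was among the 6.25% of genes that were higher at an unadjusted edgeR p under 0.05, while 3.73% were lower. DESeq2 gave 0.58 (adjusted p = 0.0433), where it called 1.22% of genes higher and 0.307% lower, while edgeR called 0.0301% higher and 0.00603% lower. A 2-sided exact permutation test over the 6 libraries gave p = 0.1, the smallest that 3 libraries against 3 allow. Over 12 alternative settings the log2 fold change lay between 0.44 and 0.76 and the adjusted p between 0.0433 and 0.662.

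**Figure D1:**
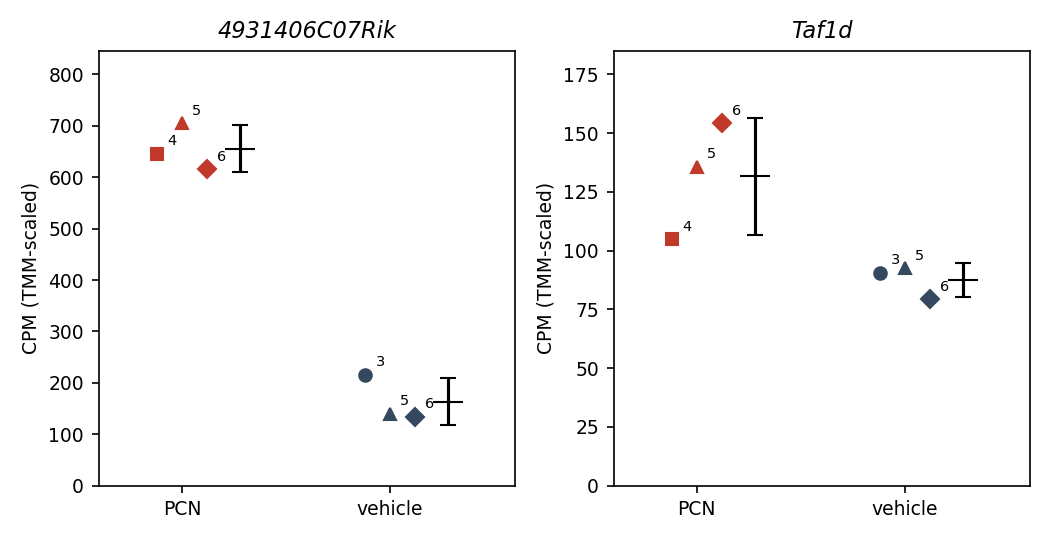
TMM-scaled CPM of 4931406C07Rik (left) and Taf1d (right) in each library, with PCN in red and vehicle in blue-grey, the replicate number beside each point and the mean ± SD (n = 3) as a black bar. 4931406C07Rik sits between 616 and 705 CPM in PCN libraries and at 216 CPM or below in vehicle libraries, and Taf1d between 105 and 154 CPM against 79.2 to 92.5 CPM.

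The libraries ranked differently by the overlapping genes. 4931406C07Rik was highest in PCN replicate 5 and differed 1.15-fold between the highest and the lowest PCN library, while Taf1d was highest in PCN replicate 6, lowest in PCN replicate 4 and differed 1.47-fold. Among vehicle libraries 4931406C07Rik was highest in replicate 3. Taf1d was nearly level in vehicle replicates 5 and 3 (92.5 and 90.6 CPM). Its counting error was up to 2.24%, so the order of these replicates is not resolved for Taf1d. The count of 4931406C07Rik was 6.16, 5.19 and 3.99 times that of Taf1d in PCN replicates 4, 5 and 6, against 2.39, 1.52 and 1.70 times in vehicle replicates 3, 5 and 6. The PCN and vehicle ratios did not overlap. On the log2 scale it averaged 2.33 ± 0.32 after PCN and 0.87 ± 0.34 after vehicle (SD, n = 3 each), a difference of 1.46 that contains the difference for which 4931406C07Rik was chosen and was not tested.

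Reads from the shared stretch cannot be assigned to a strand from the sources used here, since neither the labels nor the methods say whether strand was used in counting. The mean count of 4931406C07Rik was 12038 higher and that of Taf1d 1094 higher in PCN libraries. The shared stretch is 2.16% of the exonic bases of 4931406C07Rik. The part of shared reads in the counts of Taf1d was not tested. Cep295, a centriole protein gene that overlaps the far end of Taf1d, showed a log2 difference of -0.13 (edgeR, adjusted p = 0.758).

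Levels of the genes can be compared only per length. The deposited FPKM (counts scaled by gene length and library size) of 4931406C07Rik were 58.2, 64.1 and 55.7 in PCN replicates 4, 5 and 6, against 19.95, 12.9 and 12.9 in vehicle replicates 3, 5 and 6. Those of Taf1d were 11.5, 15.0 and 16.9 in PCN replicates 4, 5 and 6, against 10.2, 10.4 and 9.21 in vehicle replicates 3, 5 and 6. By FPKM, 4931406C07Rik was thus the more abundant gene in every library, with a ratio of 5.07, 4.28 and 3.29 in PCN replicates 4, 5 and 6 and 1.97, 1.25 and 1.40 in vehicle replicates 3, 5 and 6. The order in vehicle libraries depends on the length used. The ratio of the lengths behind the FPKM was 1.21, which is also that of the exonic bases summed over all annotated transcripts, retained introns included (10871 for 4931406C07Rik and 8949 for Taf1d). The longest protein-coding transcripts, of 2756 and 1148 bases, differ 2.40-fold. Per base of these transcripts, 4931406C07Rik was 2.57, 2.16 and 1.66 times as abundant as Taf1d in PCN replicates 4, 5 and 6, but 0.994, 0.632 and 0.707 times in vehicle replicates 3, 5 and 6. Which transcripts the reads came from was not tested.

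**Figure D2:**
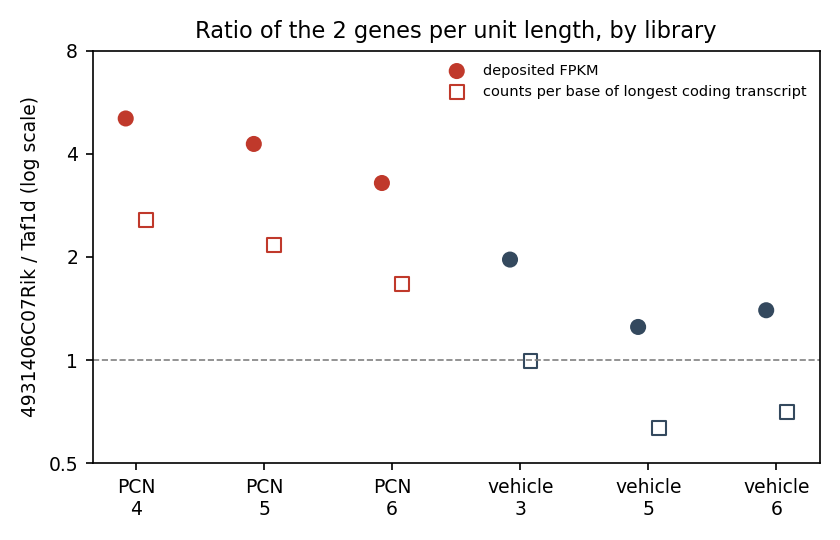
Level of 4931406C07Rik over that of Taf1d per unit length in each library, on a log axis, from the deposited FPKM (filled circles) and from counts per base of the longest protein-coding transcript (open squares). PCN libraries are in red and vehicle libraries in blue-grey. Both scales put PCN libraries above vehicle libraries, but only by FPKM are all vehicle libraries above the dashed line of equal levels.

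Among the 10 nearest tested neighbours, 5 on each side, Vstm5 had the difference nearest to that of 4931406C07Rik. Vstm5, which encodes a membrane protein of the immunoglobulin superfamily, lies 23.9 kb beyond the 3′ end of 4931406C07Rik, on the plus strand from 15239045 to 15259416. It had 39.6, 49.8 and 55.3 CPM in PCN replicates 4, 5 and 6, against 23.5, 14.5 and 9.57 CPM in vehicle replicates 3, 5 and 6. The groups did not overlap, and vehicle replicate 3 was the highest of its group for Vstm5 as for 4931406C07Rik. By edgeR the log2 fold change of Vstm5 was 1.61 with an SE of 0.30 (adjusted p = 0.176), and it rose by DESeq2 (1.59, adjusted p = 1.75e-05). It passed edgeR without vehicle replicate 3 (2.00, adjusted p = 0.0330), and over all settings its adjusted p lay between 1.75e-05 and 0.420.

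Med17, a subunit of the Mediator complex, lies between Vstm5 and 4931406C07Rik, 3.41 kb from the end of 4931406C07Rik, and had 44.4 ± 6.52 CPM after PCN and 39.6 ± 4.30 CPM after vehicle (SD, n = 3 each). These differ by 0.17 on the log2 scale (edgeR, adjusted p = 0.692). Panx1, which encodes a membrane channel protein, had 0.42 (edgeR, adjusted p = 0.429 and unadjusted p = 0.0199) at a distance of 238 kb. The other neighbours, Ankrd49, Mre11a, Smco4, Slc36a4, Fat3 and Chordc1, had log2 fold changes of -0.09, 0.21, 0.30, 0.20, 1.09 and 0.10, and none passed edgeR or DESeq2, which gave Fat3 no adjusted p. Fat3 averaged only 0.913 CPM after PCN and 0.424 CPM after vehicle, and its groups overlapped. Of the 10 neighbours, 8 had a positive log2 fold change, where 51.6% of all genes did. They include Fat3 and Chordc1, which lay 593 kb and 2975 kb away. By DESeq2 1 neighbour was higher, where 1.22% of all genes were, and none passed edgeR. At an unadjusted edgeR p under 0.05, 2 were higher, where 6.25% of all genes were.

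**Figure D3:**
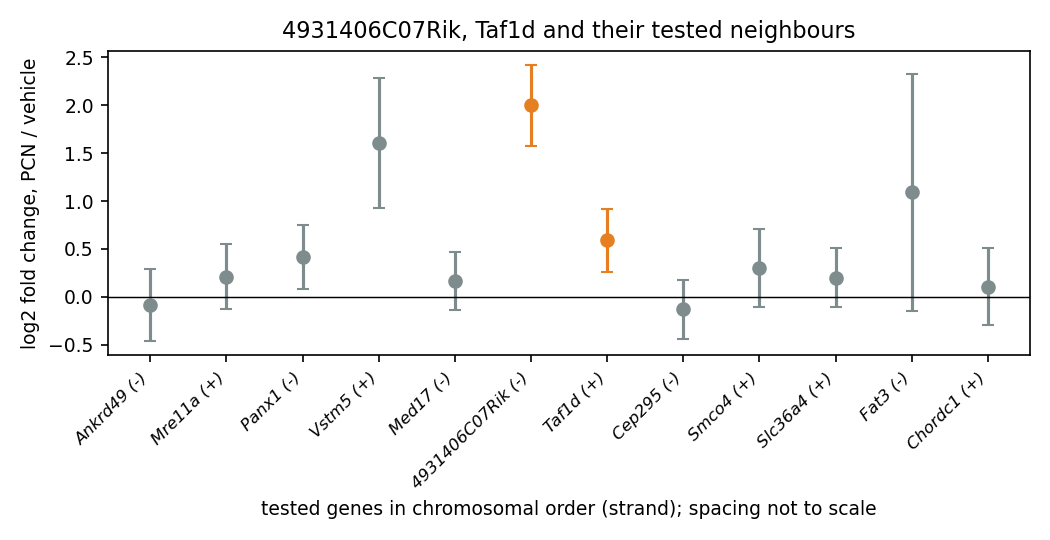
Fitted log2 fold change of PCN over vehicle (points) with 95% confidence intervals (bars) for 4931406C07Rik and Taf1d in orange and their tested neighbours in grey, in chromosomal order, with the strand in brackets and spacing not to scale. 4931406C07Rik (2.00) and Vstm5 (1.61) stand above Med17 (0.17), which lies between them.

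Pairs of genes that start head to head are common in the mouse genome, and most such partners differed little in fold change. Among tested protein-coding genes, 987 pairs started head to head within 1 kb of each other, and 359 of these overlapped as 4931406C07Rik and Taf1d do. Partners had a median absolute difference in log2 fold change of 0.19, with a 90th percentile of 0.55. Partners had the same sign in 53.5% of pairs, where 51.6% of all genes tested had a positive log2 fold change. Pairs of other genes were not compared, so these values are not shown to be particular to head-to-head pairs. 4931406C07Rik and Taf1d differed by 1.41, which ranked 5 of 987, and the sign was the same. This pair entered with 4931406C07Rik chosen for its change, so the rank is a description. In none of the other pairs did either gene pass edgeR, which called 0.0301% of all genes tested higher and 0.00603% lower.

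**Figure D4:**
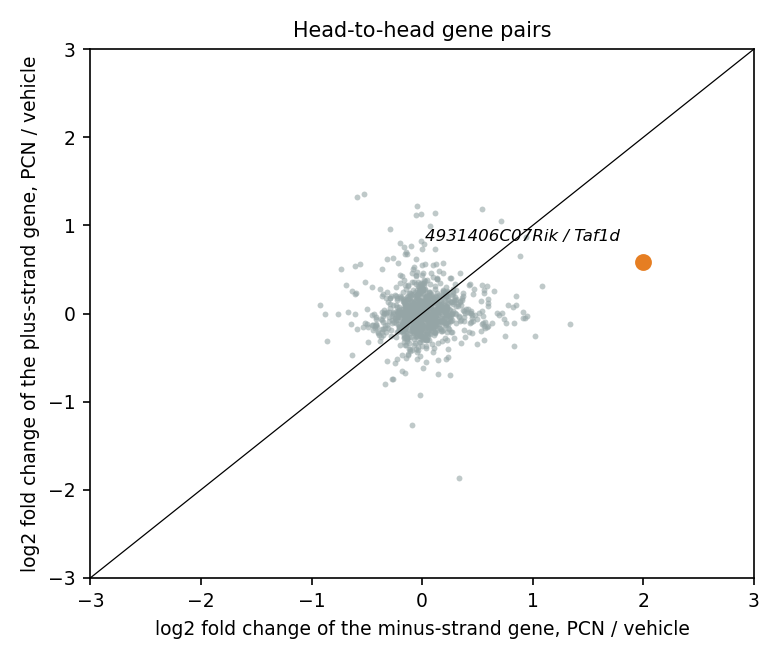
Log2 fold change of PCN over vehicle of the minus-strand gene (x axis) and of the plus-strand gene (y axis) for 987 head-to-head pairs, with 4931406C07Rik and Taf1d in orange and a line of equal change. The orange point sits at 2.00 and 0.59, below the line and to the right of all other pairs.

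The other subunits of SL1 had smaller differences than Taf1d, in either direction. Tbp, the TATA-binding protein that SL1 shares with other initiation complexes, had 25.7 ± 1.11 CPM after PCN and 30.4 ± 3.06 CPM after vehicle (SD, n = 3 each), and its groups did not overlap, in the direction opposite to Taf1d. Its log2 fold change by edgeR was -0.24 (adjusted p = 0.519). Taf1a, Taf1b and Taf1c, the remaining subunits, had log2 fold changes of 0.14, -0.15 and 0.16 (edgeR, adjusted p = 0.749, 0.861 and 0.712). Of the 5 subunits Taf1d alone passed DESeq2, and it had the highest FPKM, 14.5 ± 2.77 after PCN and 9.91 ± 0.612 after vehicle (SD, n = 3 each). Next came Taf1c, with 7.49 FPKM after PCN and 6.94 FPKM after vehicle, and Taf1a, with 6.66 FPKM after PCN and 6.25 FPKM after vehicle.

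Further along the same pathway, values stayed close to those of all genes. The initiation factors Rrn3, Ubtf, Ttf1 and Baz2a had log2 fold changes of -0.01, 0.02, -0.06 and -0.07, and none passed edgeR or DESeq2 (by edgeR, 0 of 4 at an unadjusted p under 0.05). Of 13 subunits of RNA polymerase I, 7 were positive, with a median of 0.05 against 0.01 over all genes tested. None passed edgeR or DESeq2, and 1 was higher before adjustment in edgeR, where 6.25% of all genes tested were. The smallest unadjusted edgeR p among them belonged to Polr1a, the largest subunit (0.30, unadjusted p = 0.0273, adjusted p = 0.457), Cd3eap (0.46, adjusted p = 0.504) and Polr1e (0.31, adjusted p = 0.625). Only Polr1a of these 13 had every PCN library above every vehicle library, as did 8.69% of all genes tested.

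Core proteins of snoRNA particles had positive differences, and 2 of them passed DESeq2. All 8 tested had a positive log2 fold change, with a median of 0.40, and 7 were higher in every PCN library, against 51.6% and 8.69% of all genes tested. The median was 0.26 without PCN replicate 6. All 6 markers of proliferating cells were positive as well, with a median of 0.54, and the part of proliferation in these values was not tested. By DESeq2, which called 1.22% of all genes higher, Nop56 and Nop58, the paired scaffold proteins of box C/D particles, rose, with log2 fold changes of 0.45 and 0.41 (adjusted p = 0.0112 and 0.0204). EdgeR gave 0.47 and 0.43 (adjusted p = 0.190 and 0.204), and called none of the 8. Before adjustment in edgeR, 5 were higher and 0 lower, where 6.25% and 3.73% of all genes tested were. Nop56 reached 67.0 ± 3.02 CPM after PCN and 48.4 ± 3.36 CPM after vehicle (SD, n = 3 each). The other genes below 0.05 before adjustment, named after their values were seen, were Fbl, the methyltransferase of the same particles, and Nhp2 and Dkc1, of box H/ACA particles, with 0.37, 0.45 and 0.43 (edgeR, adjusted p = 0.369, 0.397 and 0.434). Other snoRNA host genes were spread around 0. Of 21 rows tested, in which Snhg4 has 2, 11 were positive, the median was 0.03 and none passed edgeR or DESeq2 (by edgeR, 0 at an unadjusted p under 0.05). The smallest unadjusted p belonged to Snhg17 (0.29), Snhg18 (0.36) and Snhg14 (-0.39), with edgeR adjusted p of 0.506, 0.532 and 0.532.

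Carboxylesterases apart, other ester and thioester hydrolases, enzymes of the broad class to which 4931406C07Rik is assigned, had smaller differences. Of 35 tested, 14 were positive and 21 negative, the median was -0.08 and none passed edgeR or DESeq2. By edgeR before adjustment, 2 were higher and 3 lower, where 6.25% and 3.73% of all genes tested were. Of these, Lypla2, at 0.24, and Acot4, at -0.45, were named after their values were seen. Their log2 fold changes ran from -0.86 to 0.88. The smallest unadjusted p belonged to Acot11, an acyl-CoA thioesterase (0.40, adjusted p = 0.258), Abhd12, a lysophospholipid hydrolase (-0.29, adjusted p = 0.370), and Acot1 (-0.76, adjusted p = 0.445), all from edgeR. Carboxylesterases, which also cleave esters, were left out of this list. Among them, Ces2a, named below for its likeness to 4931406C07Rik, had 1.72 by edgeR (adjusted p = 0.167) and passed DESeq2 (adjusted p = 7.77e-07).

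**Figure D5:**
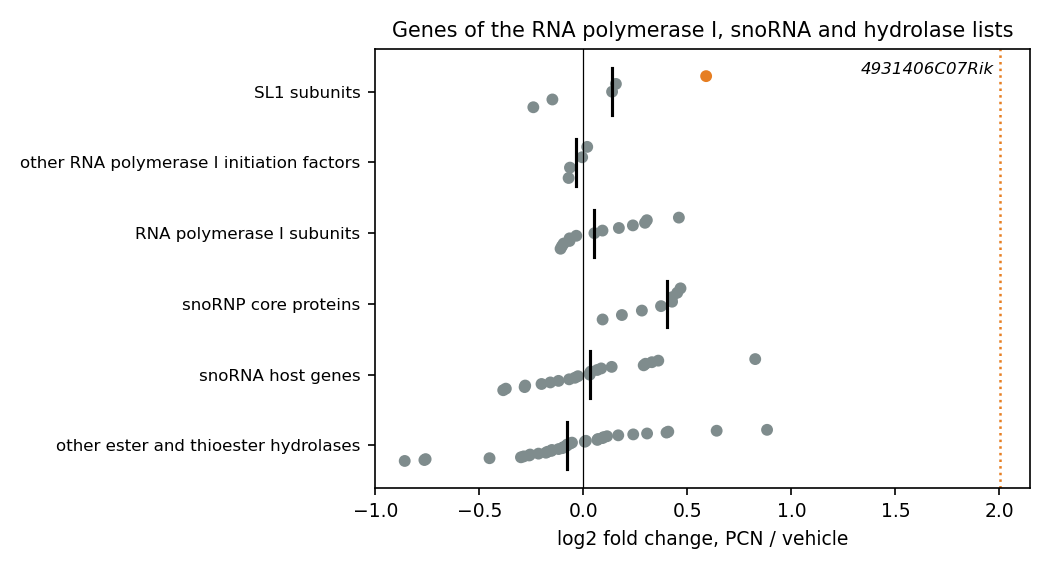
Log2 fold change of PCN over vehicle of each gene (points) in lists of RNA polymerase I, snoRNA and hydrolase genes, with the median of each list as a black bar, Taf1d in orange and 4931406C07Rik as a dotted line at 2.00. Points are spread vertically only to separate them. The snoRNA particle core proteins have the highest median (0.40), and Taf1d (0.59) is the highest of the SL1 subunits.

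The genes most like 4931406C07Rik over the 6 libraries, by the Euclidean distance between centered log2 CPM, were Ggt1, Akr1b7, Cyp2c55, Ces2a and Bhlha15, at distances of 0.52 to 0.72 against a median of 2.596 over all genes tested. Ggt1 encodes a γ-glutamyltransferase of glutathione breakdown, Akr1b7 an aldo-keto reductase, Cyp2c55 a cytochrome P450, Ces2a a carboxylesterase and Bhlha15 a transcription factor of secretory cells. Their mean levels after PCN ran from 9.20 CPM for Akr1b7 to 4447 CPM for Cyp2c55, against 2.04 and 1513 CPM after vehicle, so that likeness here is in the pattern and not in the level. Vstm5 came in place 7 (0.75) and Taf1d in place 653 (1.90). The genes most like Taf1d were Gm15638, 1110006O24Rik, B3galt6, Trim27 and Gm47806, at distances of 0.22 to 0.26. Of these, Trim27, a ubiquitin ligase gene, had 77.8 ± 8.51 CPM after PCN and 52.2 ± 0.573 CPM after vehicle (SD, n = 3 each), and B3galt6, which builds the linker of glycosaminoglycans, 11.8 ± 2.43 and 8.88 ± 0.613 CPM. The remaining genes averaged at most 1.28 CPM in either group. These genes were picked for their likeness, so their patterns are not tested.

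The libraries had 24014533 to 25422856 counts after PCN and 21924026 to 24511430 after vehicle. As a check of the treatment, B3galt5, the galactosyltransferase gene that the study follows, showed a log2 difference of 1.55. The study took up B3galt5 from RNA sequencing after PCN, so its rise is not an independent check. Cyp2c55, a known intestinal PXR target, had 1.56 but did not pass edgeR (adjusted p = 0.188), while it passed DESeq2 (adjusted p = 6.79e-06). Nr1i2, the gene of PXR, had -0.20. All 10 markers of colon epithelium were detected, and the 3 liver markers and the 1 kidney marker in the table summed to at most 6.28 and 0.775 CPM in any library. The summed level of the colon epithelium markers was 30764.5 to 37230.1 CPM in PCN libraries and 21816 to 27508 CPM in vehicle libraries, and that of 5 fibroblast markers 1204 to 1613 CPM in PCN libraries and 914 to 1174 CPM in vehicle libraries. The part of these differences in the results was not tested beyond the scaling to markers given here. Groups overlapped in the summed markers of small intestine, proliferating, immune and smooth muscle cells, although single markers moved. Of the proliferation markers, Mcm3 and Mcm2, subunits of the replicative helicase, rose by DESeq2 (log2 fold changes 1.19 and 0.84, adjusted p = 4.03e-08 and 2.84e-07) but did not pass edgeR (adjusted p = 0.0693 for each). Of the small intestine markers, Enpep, an aminopeptidase gene, fell by edgeR (-1.53, adjusted p = 0.0262) and Apoa1, an apolipoprotein gene, fell by DESeq2 (-2.90, adjusted p = 0.000951) but did not pass edgeR (adjusted p = 0.287). Muc2, the main mucin of goblet cells, and Col3a1, a collagen gene among the fibroblast markers, rose by DESeq2 (0.49 and 0.81, adjusted p = 0.0305 and 0.0376) but did not pass edgeR (adjusted p = 0.344 and 0.365). In bulk tissue, fewer cells of a type and less RNA per cell cannot be told apart. Per summed count of the colon epithelium markers, 4931406C07Rik had 1.70%, 2.22% and 1.97% in PCN replicates 4, 5 and 6, against 0.788%, 0.612% and 0.641% in vehicle replicates 3, 5 and 6, a log2 difference of 1.53 with no overlap. On the same scale Taf1d had 0.276%, 0.427% and 0.493% in PCN replicates, against 0.330%, 0.404% and 0.378% in vehicle replicates, a log2 difference of 0.07 with overlapping groups.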

How the data were processed

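Per the study's methods, the authors removed low-quality and adapter reads, mapped the rest with STAR and made read counts per gene with HTSeq. The methods name a pig assembly, the submitters' processing notes mm10, and the gene identifiers are those of mouse. The deposited counts are raw read counts per gene. The FPKM values were computed by the authors in a way not given in the sources used here, and their lengths matched the exonic bases of all transcripts. The authors' fold changes, p-values and mark of regulated genes were not used, nor were the deposited coordinates, which differ from GRCm38. Counts were fitted with edgeR 4.0.16 in R 4.3.3 (TMM, filterByExpr with a minimum count of 10 and total of 15, glmQLFit, glmQLFTest), with Benjamini-Hochberg adjustment over 16586 genes and a threshold of 0.05. Both genes passed the filter. Alternatives were DESeq2 1.42.0, no filter, each library left out, a replicate block, no TMM scaling, and limma 3.58.1 on log2(FPKM + 1) and log2(FPKM + 0.1). Counts per base of the longest coding transcript were added after seeing the data. Replicates differed by more than sampling noise. Functions were tested on simulated data.

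The genes and lists were chosen with earlier results of these data known. Named genes are the members, all SL1 subunits, the 5 nearest tested neighbours on each side, genes annotated inside a member, the 5 most alike genes per member, Nr1i2, B3galt5 and Cyp2c55, and per list the genes that passed edgeR or DESeq2, or else the 3 with the smallest p.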

Additional observations from a re-analysis of the deposited data

How the results depend on the processing

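Over 12 alternatives the log2 fold change of 4931406C07Rik lay between 1.88 and 2.26 (1.88 to 2.25 with 1 library left out) and its excess over that of Taf1d between 1.27 and 1.64. Taf1d passed only DESeq2 (0.58, adjusted p = 0.0433), the cause of which was not tested, and with 1 library left out it lay between 0.44 and 0.73. The 6 genes that edgeR called over the whole table became 214 with DESeq2, 27 without a filter, 74 with the replicate block and 3 without TMM scaling (2 higher and 1 lower), and 0 to 24 with 1 library left out (1091 to 2037 at an unadjusted p under 0.05). Replicate numbers are shared only by 5 and 6, whose deviations correlated at -0.15 and -0.093, so they do not pair the libraries. In the replicate block, PCN replicate 4 and vehicle replicate 3 share their number with no other library and add nothing to the contrast. The block fit, including its 74 calls, therefore rests on replicates 5 and 6 of each group alone. With that replicate block, 4931406C07Rik had 2.26, and edgeR gave Taf1d 0.76 (adjusted p = 0.0903) and Vstm5 2.15 (adjusted p = 0.00128). Per base of the longest coding transcript in place of FPKM, the mean log2 ratio of 4931406C07Rik to Taf1d was 1.07 in place of 2.05 in PCN libraries and -0.39 in place of 0.59 in vehicle libraries, because the lengths differ. With 1 library left out, values near 0 changed sign for Taf1b (-0.35 to 0.054), Ankrd49 (-0.30 to 0.0077) and Chordc1 (-0.085 to 0.23). With 3 libraries a group, genes below about 1 CPM, such as Fat3, are measured imprecisely.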
